A study of Macaca mulatta with 22 samples.

Results

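Ruptured ovulatory follicles of the rhesus macaque, collected 36 h after an ovulatory dose of human chorionic gonadotropin (hCG), were compared with follicles collected 12 h after it. The samples were chosen by their titles, which gave 4 arrays of ruptured follicles (numbered 5 to 8 in the labels) and 4 arrays of 12 h follicles (numbered 1 to 4), 8 of the 22 arrays in the series. The other 14 arrays were 6 follicles at 0 h, taken without hCG, 4 at 24 h and 4 unruptured follicles at 36 h. In every group, females whose serum estradiol had reached 100 to 120 pg/ml received the GnRH antagonist Acyline with 30 IU of recombinant human FSH and 30 IU of recombinant human LH on 2 occasions. All groups but the 0 h group then received 1000 IU of recombinant human hCG. The dominant follicle of an operated ovary was frozen whole and its total RNA was hybridised to an Affymetrix rhesus macaque array. The description field of the arrays in both groups speaks instead of the corpus luteum forming after ovulation, which is at odds with the titles and protocols of the 12 h follicles, and the groups here follow the titles. The labels give no strain and no age, and do not say for each array whether follicles came from separate animals, and the p-values therefore reflect the spread among the follicles sampled, which may be technical in part. A ruptured 36 h follicle differs from a 12 h follicle in both its age after hCG and its rupture, and these cannot be told apart in this comparison. Levels at 24 h and in unruptured 36 h follicles are therefore given beside the main values of some genes, as a description.

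Ovulation is started by the surge of luteinizing hormone, whose receptor hCG also binds. Within hours granulosa and theca cells induce transcription factors, EGF-like ligands and prostaglandins, the cumulus lays down a hyaluronan matrix, and steroid output turns from androgen and estrogen towards progesterone. Proteases and their inhibitors then remodel the follicle wall at the apex until it breaks. After rupture the wall is invaded by blood vessels and becomes the corpus luteum.

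Of 52766 probe sets tested with limma, 845 (1.60%) passed a Benjamini-Hochberg adjusted p under 0.05. In ruptured follicles 497 (0.942%) were higher and 348 (0.660%) lower, and 398 (0.754%) differed at least 2-fold. The 518 of them with a usable gene symbol stood for 437 genes. The groups did not overlap for 4218 probe sets (7.99%), 1952 higher (3.70%) and 2266 lower (4.29%), and 799 of the 845 were among these. Over the brightest probe set of each of 14132 named genes, 289 (2.05%) passed, 187 (1.32%) higher and 102 (0.722%) lower, with a median log2 difference of -0.02. That share is the background for the gene lists below. An unadjusted p under 0.05 was reached by 7714 of the 52766 probe sets, in either direction. Counts of list members at an unadjusted p under 0.05 are to be read beside that number. The same fit called 3628 probe sets (6.88%) between 24 h and 12 h and 5181 (9.82%) between unruptured 36 h and 12 h follicles. Pearson correlations over the 26383 brighter probe sets were 0.922 to 0.954 among 12 h arrays, 0.933 to 0.956 among ruptured arrays and 0.911 to 0.944 between them. The calls lean on the spread shared by all 5 groups. A fit of the 8 arrays alone leaves the differences as they are but called only 9 probe sets, 8 of them among the 845, and none of the 70 named called probe sets was among the 9. Scaling each array to reference genes moved the share of higher calls from 58.8% to 46.8% of 803 probe sets, that is 376 higher and 427 lower.

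**Figure D1:**
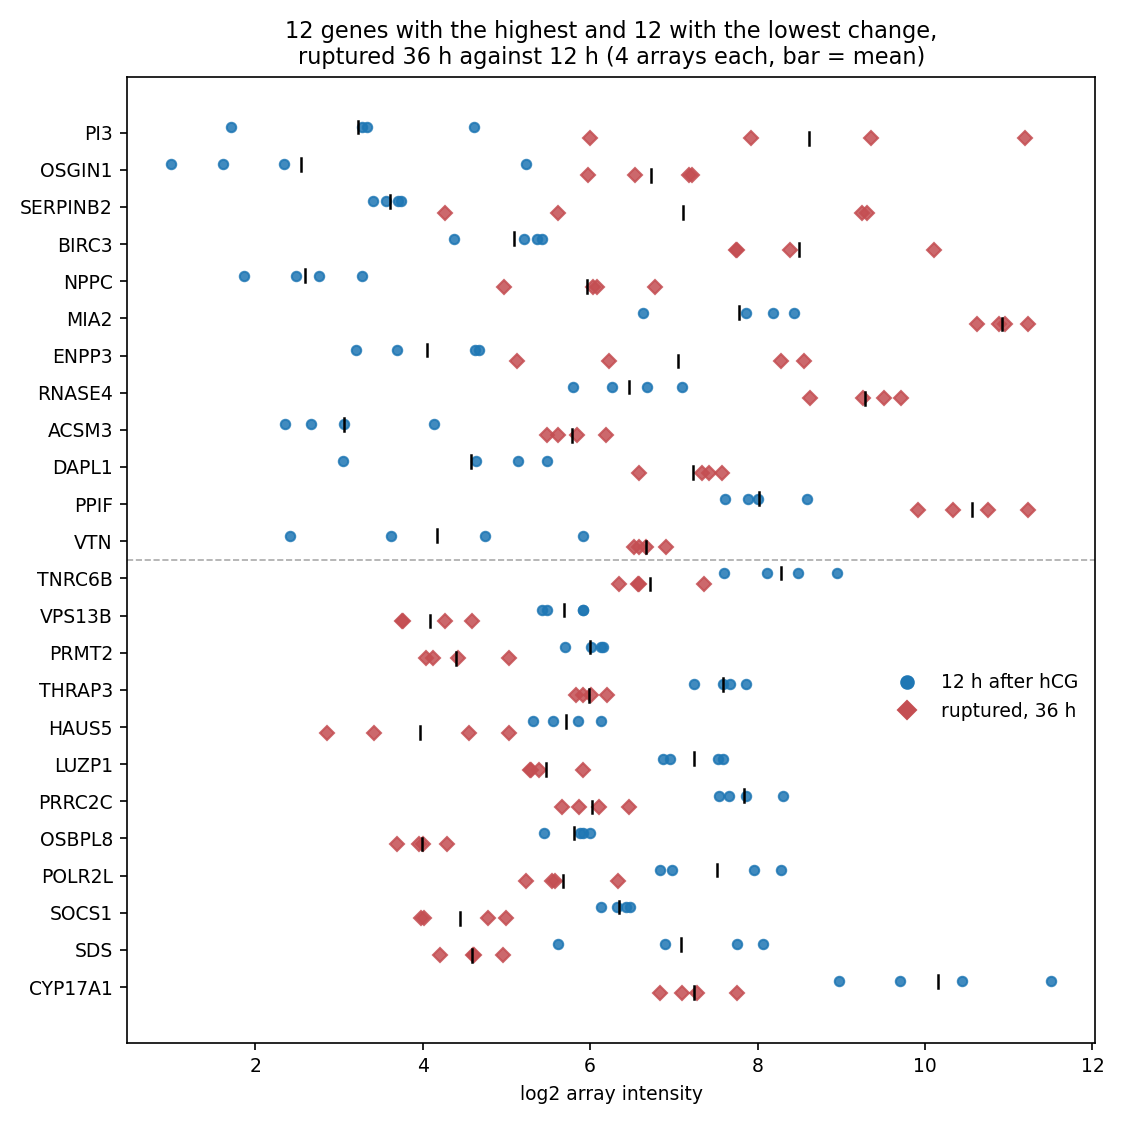
Genes at both ends of the log2 difference (12 highest, 12 lowest) between ruptured and 12 h follicles; the x axis is log2 array intensity, each point is 1 array (circles 12 h, diamonds ruptured, 4 each) and the bar is the group mean. Within each gene the ruptured and 12 h arrays do not overlap, which the rule for choosing these genes required.

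Of the 12 genes furthest up, 8 averaged below the median of all probe sets, 4.63, at 12 h. The gene furthest up was PI3, which encodes elafin, a secreted inhibitor of neutrophil elastase. Its log2 intensities were 3.27, 3.33, 1.71 and 4.61 at 12 h and 11.19, 7.92, 6.00 and 9.35 in ruptured follicles. Every ruptured array lay above every 12 h array, although the ruptured arrays themselves spread over several log2 units. The difference was 5.38 ± 0.88 (SE; adjusted p = 0.00395), and PI3 averaged 5.29 ± 0.76 (SD, n = 4) at 24 h and 5.11 ± 0.72 in unruptured follicles. BIRC3, an inhibitor-of-apoptosis protein and ubiquitin ligase of the NF-kB pathway, read 5.21, 4.37, 5.43 and 5.36 at 12 h against 10.11, 7.74, 7.75 and 8.39 after rupture. All ruptured arrays were clearly above the others and the difference was 3.40 ± 0.46 (SE; adjusted p = 8.51e-04). Its mean was 4.83 ± 0.76 at 24 h and 4.28 ± 0.57 in unruptured follicles, so of the 5 groups only the ruptured group averaged above 6 on this scale. PPIF, cyclophilin D of the mitochondrial permeability transition pore, read 7.89, 8.00, 7.61 and 8.59 at 12 h and 11.23, 10.34, 9.92 and 10.75 in ruptured follicles. That is 5.80-fold higher (log2 difference 2.54 ± 0.29, adjusted p = 1.52e-04), with a 24 h mean of 7.21 and an unruptured mean of 6.95.

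NPPC encodes C-type natriuretic peptide, the granulosa ligand that holds the oocyte in meiotic arrest through its receptor NPR2. It was higher in ruptured follicles, with log2 intensities of 6.77, 6.04, 4.97 and 6.08 against 3.27, 2.49, 1.87 and 2.76 at 12 h. No array of either group reached the other, and the difference was 3.37 ± 0.42 (SE; adjusted p = 4.09e-04). All 12 h values lie below the median of all probe sets, where sizes are uncertain, and with 16 added to the intensities before the log the difference was 1.84. NPPC averaged 1.35 at 0 h, 2.27 at 24 h and 1.37 in unruptured follicles. It was the only member of the 7 measured genes of the meiotic arrest and gap junction list (NPR2, NPR3, GJA4, GPR3, PDE3A and IMPDH2 are the others) to pass.

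**Figure D2:**
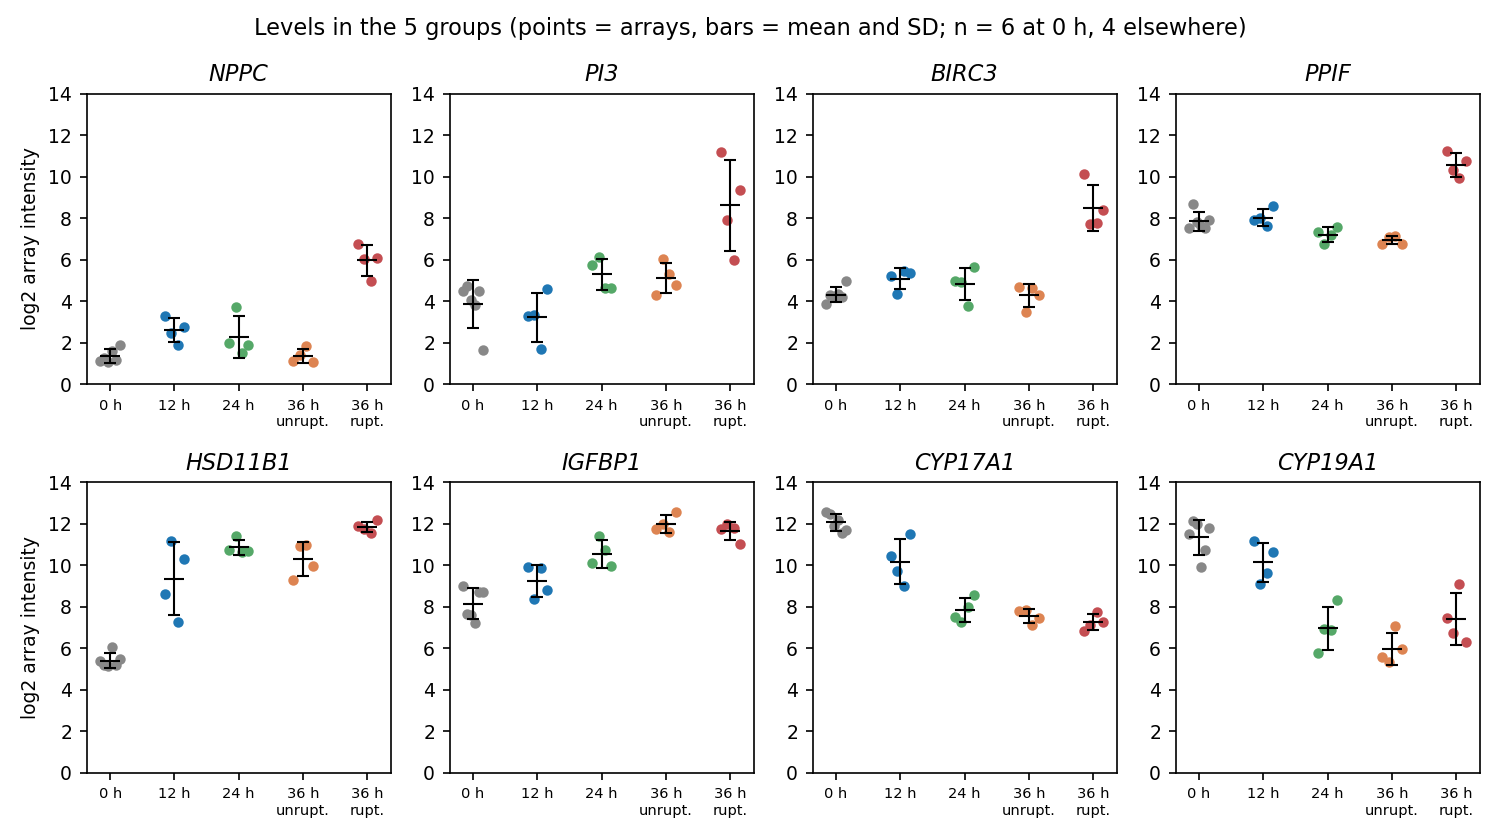
Log2 array intensity (y axis) of 8 genes in the 5 groups (x axis); points are arrays, horizontal ticks are means and bars are SD, with 6 arrays at 0 h and 4 elsewhere. NPPC, PI3, BIRC3 and PPIF have their highest mean in ruptured follicles, whereas IGFBP1 averages 11.96 in unruptured and 11.63 in ruptured follicles and CYP17A1 is already at 7.82 by 24 h.

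SERPINB2, the plasminogen activator inhibitor PAI-2, read 3.74, 3.41, 3.56 and 3.71 at 12 h and 9.31, 5.62, 4.27 and 9.25 in ruptured follicles. Ruptured replicates 5 and 8 were far above 12 h and replicate 7 was close to it. The difference was 3.51 ± 0.80 (SE; adjusted p = 0.0303), and the call ended when any 12 h replicate, ruptured replicate 5 or ruptured replicate 8 was left out, with adjusted p up to 0.0877. MIA2, which acts in export of cargo from the endoplasmic reticulum, read 6.63, 8.19, 7.86 and 8.43 at 12 h against 11.23, 10.88, 10.62 and 10.95 after rupture (difference 3.14 ± 0.47, adjusted p = 0.0021). Of its 8 probe sets 3 were higher, 1 was lower (by 0.72 on the log2 scale, adjusted p = 0.0334) and the rest did not pass. The other 2 higher probe sets of MIA2, with differences of 2.86 and 2.44, were among the 9 that passed in the fit of 8 arrays. RNASE4, a secreted ribonuclease, and ACSM3, a mitochondrial medium-chain acyl-CoA synthetase, were 7.04-fold and 6.61-fold higher by dimmer probe sets and higher also by their brightest (1.58 and 1.23 on the log2 scale). Both were already high at 24 h, RNASE4 at 8.81 against 6.46 at 12 h and ACSM3 at 6.26 against 3.06; for ACSM3 the 12 h mean is the low point, since the 0 h mean was 5.48. With 16 added, the ACSM3 difference was 1.52.

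The remaining 4 of the 12 highest rest on less stable calls. OSGIN1, an oxidative-stress-induced growth inhibitor, was higher by 4.18 ± 0.98 on a dimmer probe set, with arrays at 5.24, 1.62, 1.00 and 2.35 at 12 h and at 5.98, 7.18, 7.22 and 6.54 in ruptured follicles, while its brightest probe set differed by -0.17 (adjusted p = 0.931). ENPP3, an ectonucleotide pyrophosphatase, differed by 3.00 ± 0.72, DAPL1 by 2.65 ± 0.66 and VTN, the adhesion glycoprotein vitronectin, by 2.50 ± 0.56. The brightest ENPP3 probe set had a larger difference, 3.47, but did not pass (adjusted p = 0.106). With 16 added the differences of OSGIN1 and VTN were 2.30 and 1.66. In unruptured follicles this OSGIN1 probe set read 1.47, 6.43, 6.17 and 3.63, in part within its ruptured range. DAPL1 averaged 5.26 at 24 h and 6.13 in unruptured follicles, and ENPP3 3.43 and 4.59. VTN averaged lowest at 12 h, at 4.17, against 5.20 at 0 h, 5.62 at 24 h and 5.18 in unruptured follicles. Calls were lost without 12 h replicate 1 (ENPP3, DAPL1, VTN), 2 (OSGIN1, ENPP3, DAPL1), 3 (all 4 genes) or 4 (OSGIN1, ENPP3, DAPL1) and without ruptured replicate 5 or 7 (all 4), 6 (OSGIN1, DAPL1, VTN) or 8 (OSGIN1, ENPP3, DAPL1), with adjusted p up to 0.146.

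Of the 6 measured genes of androgen and estrogen synthesis 2 were lower after rupture, CYP17A1 and CYP19A1, and 0 higher; the list's median difference was 0.03, with 3 genes above 0 and 3 below. CYP17A1, the theca enzyme that makes androgen precursors, read 10.44, 9.70, 8.97 and 11.51 at 12 h and 6.83, 7.10, 7.75 and 7.28 in ruptured follicles. All ruptured arrays were below all 12 h arrays, a 7.54-fold difference (log2 -2.91 ± 0.41, SE; adjusted p = 0.00114). CYP19A1, the granulosa aromatase that makes estradiol, read 11.15, 9.10, 9.61 and 10.64 against 7.47, 6.74, 9.11 and 6.31. Ruptured replicate 7, at 9.11, lay just above the lowest 12 h follicle, so here the groups overlapped. The difference was -2.72 ± 0.66 (adjusted p = 0.0421) and did not pass without 12 h replicate 1, 3 or 4 or ruptured replicate 5, 6 or 8 (adjusted p up to 0.123). Both enzymes had low means by 24 h, CYP17A1 at 7.82 and CYP19A1 at 6.96, and in unruptured follicles, at 7.55 and 5.97.

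Of 9 measured genes of progesterone synthesis 1 was higher and 0 lower. It was TSPO, a mitochondrial membrane protein long linked to cholesterol handling, with 8.17, 7.81, 8.45 and 8.37 at 12 h and 9.37, 9.47, 9.47 and 9.06 after rupture. TSPO differed by 1.14 ± 0.21 (adjusted p = 0.00893) and stood at 9.26 at 24 h and 9.40 in unruptured follicles; with the mean of each gene's probe sets no gene of the list passed. STAR, which carries cholesterol into mitochondria, averaged 13.22 ± 0.28 (SD, n = 4) at 12 h and 13.35 ± 0.03 in ruptured follicles, a difference of 0.14 with a 95% interval of -0.18 to 0.45 (adjusted p = 0.758). HSD3B2, which forms progesterone from pregnenolone, averaged 11.92 ± 0.54 and 12.09 ± 0.26, a difference of 0.16 (interval -0.72 to 1.04), while its mean was 9.83 at 24 h and 8.46 in unruptured follicles. HSD11B1, which turns inactive into active glucocorticoid, read 8.63, 11.18, 7.24 and 10.30 at 12 h and a narrow 11.87, 11.75, 11.56 and 12.16 after rupture. The difference was 2.50 ± 0.58 (adjusted p = 0.0344), lost without 12 h replicate 1 or 3 or ruptured replicate 5, 6, 7 or 8 (adjusted p up to 0.103). HSD11B1 averaged 5.41 at 0 h, 9.34 at 12 h, 10.86 at 24 h and 10.28 in unruptured follicles. It was the only called gene of 8 in the glucocorticoid list, whose median difference was 0.55.

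The hormone receptor list had 0 called of 10 by limma, with 4 at an unadjusted p under 0.05. PGR, the progesterone receptor, averaged 7.62 ± 1.40 at 12 h and 6.20 ± 0.31 in ruptured follicles (difference -1.42, interval -2.33 to -0.51, adjusted p = 0.106), and 12 h replicate 4 alone stood at 9.56. In lipid handling, NPC1, which releases cholesterol from lysosomes, differed by 0.91 ± 0.20 (adjusted p = 0.0239) as the only called gene of 15 in the cholesterol list, with the call lost without 12 h replicate 2, 3 or 4 or ruptured replicate 5 or 8 (adjusted p up to 0.0751). DGAT1, the last enzyme of triglyceride synthesis, read 7.02, 6.83, 6.35 and 6.71 against 7.80, 8.54, 8.54 and 7.63. It was 2.64-fold higher (adjusted p = 0.00282) and the only called gene of 15 in the fatty acid list. DGAT1 averaged lowest at 12 h, at 6.73, against 7.31 at 0 h, 7.35 at 24 h and 7.55 in unruptured follicles. With the mean of each gene's probe sets in place of the brightest, 3 genes of the cholesterol list, 2 of the fatty acid list, 2 of the glucocorticoid list and 1 hormone receptor were higher.

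**Figure D3:**
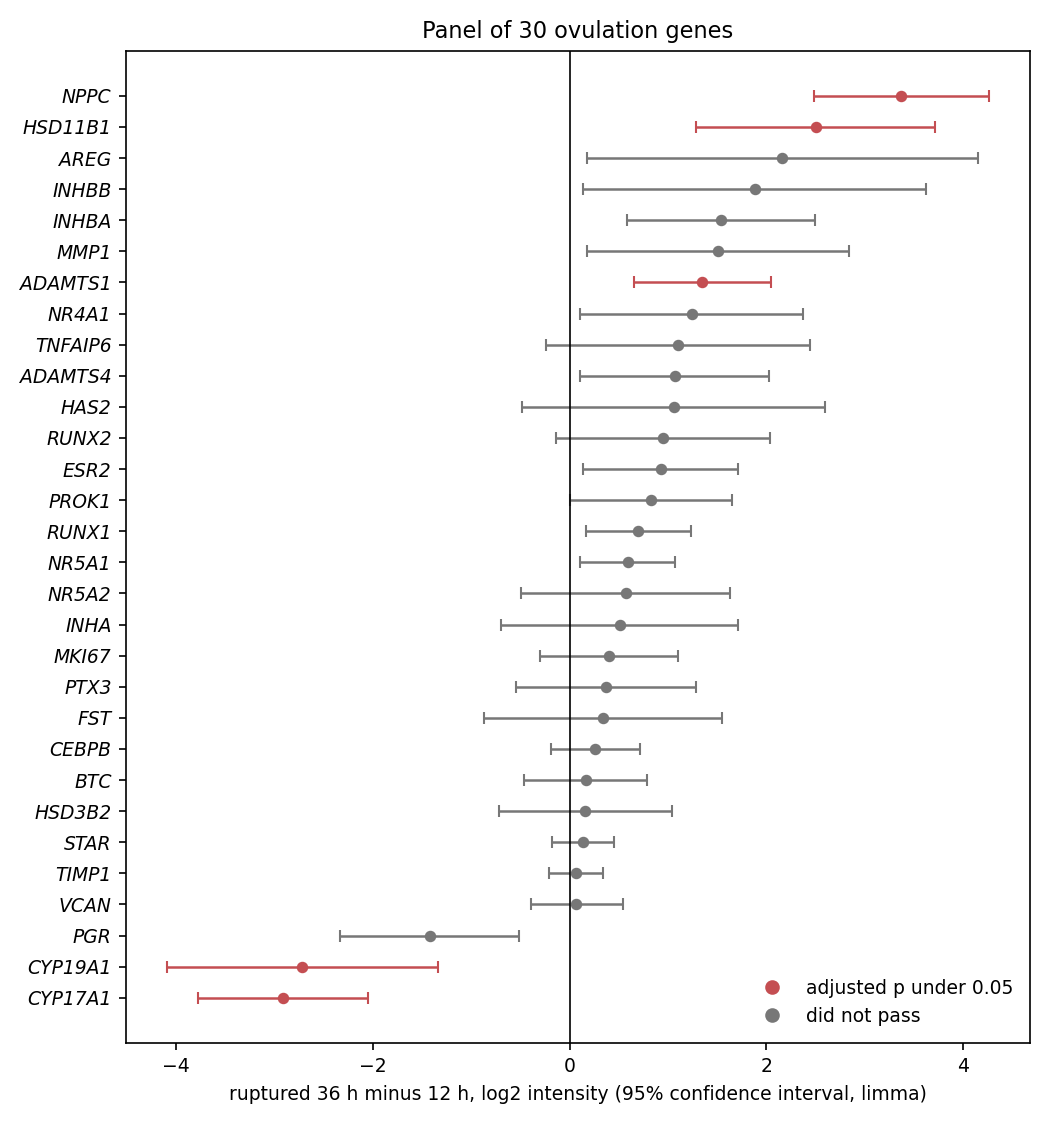
Difference between ruptured and 12 h follicles in log2 intensity (x axis) for the 30 measured genes of an ovulation panel (y axis), with 95% confidence intervals from limma; red points passed an adjusted p under 0.05 and grey points did not. NPPC, HSD11B1 and ADAMTS1 were higher, CYP17A1 and CYP19A1 lower, and 25 genes did not pass.

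A panel of 42 ovulation genes, 30 of them measured, was given whatever its result, and 5 passed. The early hCG genes among the other 25 are given with the 95% interval of their difference. AREG, the EGF-like ligand amphiregulin, read 10.06, 9.98, 9.02 and 11.47 at 12 h and 12.41, 12.10, 12.44 and 12.24 after rupture. The groups did not overlap, yet the difference of 2.16 (interval 0.18 to 4.15) did not pass (adjusted p = 0.293); the SD of AREG was 1.94 at 0 h and 1.53 in unruptured follicles. INHBA, the activin beta A subunit, averaged 10.11 ± 1.32 and 11.65 ± 0.56 (difference 1.54, interval 0.58 to 2.49, adjusted p = 0.0969). For cumulus matrix genes, PTX3 differed by 0.37 (interval -0.54 to 1.28), TNFAIP6 by 1.10 (-0.24 to 2.44), HAS2 by 1.06 (-0.48 to 2.60) and VCAN by 0.07 (-0.39 to 0.54). None of the 14 measured members of that list and none of the 10 EGF-like ligands and receptors passed limma, with 2 and 3 of them at an unadjusted p under 0.05. The nuclear receptors ESR2, NR5A1 and NR5A2 differed by 0.93, 0.59 and 0.57, the ligand BTC by 0.17, the activin subunit INHBB by 1.88 from dim values and the angiogenic factor PROK1 by 0.83, and none passed. Outside the pair of groups compared, PTX3 averaged 8.43 at 24 h and 7.06 in unruptured follicles, against 10.33 at 12 h. In the same order the means were 7.13, 8.09 and 10.13 for AREG and 5.97, 5.87 and 8.03 for TNFAIP6. They were 3.09, 3.74 and 5.14 for HAS2 and 7.74, 8.45 and 10.11 for INHBA. BTC, NR5A1, INHBB and PROK1 instead averaged higher at 24 h and in unruptured follicles than at 12 h.

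Of 19 measured ovulatory transcription factors 3 were higher and 0 lower, with a list median of 0.84. FOSL2, an AP-1 subunit, read 8.69, 8.15, 8.41 and 8.60 at 12 h and 9.44, 9.74, 10.06 and 9.10 after rupture, without overlap (difference 1.12 ± 0.23, adjusted p = 0.0153). NFIL3, a basic leucine zipper repressor, differed by 1.06 ± 0.25 and MYC, a driver of growth genes, by 0.84 ± 0.19. Each was lost without some arrays: FOSL2 without 12 h replicate 2 or ruptured replicate 7, NFIL3 without 12 h replicate 2 or 3 or ruptured replicate 5, 6 or 7, and MYC without 12 h replicate 1 or 2 or ruptured replicate 5, 6 or 7 (adjusted p up to 0.107). Scaling to reference genes ended the calls of NFIL3 and MYC. NR4A1, an orphan nuclear receptor, differed by 1.24 (interval 0.11 to 2.37) and CEBPB, a mediator of the surge, by 0.26 (interval -0.19 to 0.72); neither passed. RUNX1 averaged 8.68 against 9.38 and RUNX2 7.95 against 8.90, both without overlap of the arrays and without passing (adjusted p = 0.186 and 0.424). At 24 h and in unruptured follicles RUNX1 averaged 7.64 and 7.60, and RUNX2 7.64 and 8.01. For NR4A1 these means were 6.42 and 6.93, against 8.90 at 12 h. For CEBPB they were 10.05 and 10.15, against 11.29 at 12 h.

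Proteases open the follicle wall and inhibitors restrain them. Of 22 measured matrix proteases 3 were higher and 0 lower (list median 0.38). MMP19, a matrix metalloproteinase, read 8.96, 9.73, 9.14 and 8.79 at 12 h and 10.41, 10.19, 10.60 and 10.64 after rupture (difference 1.31 ± 0.20, adjusted p = 0.00281). PLAUR, the urokinase receptor that focuses plasmin at the cell surface, read 6.93, 7.40, 6.30 and 6.77 against 8.52, 8.00, 7.82 and 9.17 (difference 1.53 ± 0.27, adjusted p = 0.00752). Both kept their calls without any 1 array, and both were near their 12 h level in unruptured follicles, MMP19 at 8.92 and PLAUR at 6.80. ADAMTS1, a protease that cleaves versican, read 10.32, 10.04, 10.12 and 9.64 against 10.87, 11.97, 12.22 and 10.44, with no overlap (adjusted p = 0.0472). Its call ended under reference scaling and without any 12 h replicate or ruptured replicate 6 or 7 (adjusted p up to 0.144). MMP3 differed by 3.08 (adjusted p = 0.0767), MMP1 by 1.51 (interval 0.18 to 2.84), ADAMTS4 by 1.07 (interval 0.11 to 2.03) and MMP9 by -2.69 (adjusted p = 0.382). None passed, and MMP3 and MMP9 were singled out as the ends of the list. MMP1 averaged 8.25 at 12 h, 6.07 at 24 h and 5.25 in unruptured follicles, against 9.76 in ruptured follicles. For ADAMTS4 these means were 10.45, 7.73 and 7.42, against 11.51.

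Of 15 measured protease inhibitors 2 were higher, PI3 and SERPINB2, and 1 was lower, SERPINH1, the collagen chaperone HSP47. SERPINH1 averaged 11.38 ± 0.20 at 12 h and 10.79 ± 0.18 after rupture (difference -0.60 ± 0.15, adjusted p = 0.0479). The call was lost without 12 h replicate 1, 2 or 4 or ruptured replicate 5, 7 or 8 (adjusted p up to 0.125). SERPINH1 averaged 11.45 at 24 h and 10.71 in unruptured follicles. TIMP1, an inhibitor of metalloproteinases, averaged 13.45 and 13.52 (difference interval -0.21 to 0.34). None of 29 collagens and structural matrix genes passed limma, 4 being higher at an unadjusted p under 0.05.

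Among cell-matrix receptors, 2 of 13 integrins were higher and 0 lower. ITGA2, the alpha subunit of a collagen receptor, read 6.40, 5.92, 6.07 and 7.02 at 12 h and 8.82, 7.77, 7.59 and 8.35 after rupture, 3.44-fold higher (adjusted p = 0.00289). Its partner ITGB1 had a smaller and tighter difference, 0.63 ± 0.12 (adjusted p = 0.013). ITGA2 averaged 6.03 at 24 h and 5.89 in unruptured follicles. THBS2, an antiangiogenic matricellular thrombospondin, read 9.64, 9.83, 10.14 and 9.97 against 11.31, 11.08, 10.98 and 10.91. It differed by 1.18 ± 0.18 (adjusted p = 0.00259) and was the only called gene of 23 angiogenic factors and receptors. CDH1, E-cadherin, differed by 2.80 ± 0.69 (adjusted p = 0.048) as the only called gene of 16 in the junction list. CDH1 averaged 3.11 at 0 h, -0.08 at 12 h and 2.50 at 24 h. Its mean was 0.87 in unruptured and 2.72 in ruptured follicles. All of its values were below the median of all probe sets, with 16 added it differed by 0.45 (adjusted p = 0.177), and its call ended under reference scaling and without any 12 h replicate or ruptured replicate 5, 7 or 8 (adjusted p up to 0.118).

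Growth factor binding and receptor genes were higher in part. FSTL3, a secreted antagonist of activin, read 6.97, 7.27, 7.29 and 7.46 at 12 h and 9.43, 9.30, 8.63 and 9.11 after rupture. It was 3.65-fold higher (adjusted p = 8.11e-05), with means of 7.27 at 24 h and 7.48 in unruptured follicles. Of 28 genes of the BMP, TGF-beta and inhibin list 2 were higher, FSTL3 and ID4, an inhibitor of basic helix-loop-helix factors. ID4 differed by 1.35 ± 0.33 (adjusted p = 0.0466), lost under reference scaling and without 12 h replicate 1, 3 or 4 or any ruptured replicate (adjusted p up to 0.139). INHA and FST differed by 0.51 and 0.34 and neither passed (intervals -0.70 to 1.71 and -0.87 to 1.55).

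IGFBP1, a binding protein of insulin-like growth factors, read 9.91, 8.35, 9.87 and 8.81 at 12 h and 11.75, 11.99, 11.78 and 11.02 after rupture. It was 5.28-fold higher (adjusted p = 0.00893). MET, the receptor of hepatocyte growth factor, read 5.17, 5.28, 5.53 and 4.83 against 7.10, 7.01, 6.45 and 7.66 (difference 1.85 ± 0.34, adjusted p = 0.00854). They were the 2 called genes of 25 in the FGF, IGF and PDGF list. MET averaged lowest at 12 h, at 5.20, against 5.87 at 0 h, 6.30 at 24 h and 5.89 in unruptured follicles. Of 33 WNT genes 1 passed, FZD1, a WNT receptor, which was lower by a difference of -0.74 ± 0.16 (adjusted p = 0.0253) and did not pass without 12 h replicate 2 or 3 or ruptured replicate 6 or 7 (adjusted p up to 0.0835). DUSP14, a MAP kinase phosphatase, differed by 0.87 ± 0.18 (adjusted p = 0.0206) as the only called gene of 12 in its list, lost without 12 h replicate 1 or 2 or ruptured replicate 6 or 7 (adjusted p up to 0.0645).

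The inflammatory lists were not tested as a whole. Their called shares were 7.69% for cytokines and chemokines, 5.26% for the interferon response and 3.85% for complement and coagulation. No cytokine or chemokine receptor of 23 was called, and the share over all named genes was 2.05%. Of 26 cytokines and chemokines 2 were higher, IL1RN and IL18. IL1RN, the interleukin-1 receptor antagonist, read 4.67, 5.20, 4.20 and 4.65 at 12 h and 6.47, 5.81, 5.95 and 7.10 after rupture (difference 1.65 ± 0.33, adjusted p = 0.0153, and 0.0507 without 12 h replicate 3). IL18 differed by 1.36 ± 0.31 (adjusted p = 0.0317), lost without 12 h replicate 1, 3 or 4 or ruptured replicate 5, 6 or 8 (adjusted p up to 0.0956). CD55, which protects cells from complement, read 8.44, 7.92, 7.98 and 8.55 against 9.40, 10.01, 9.45 and 9.52. It was 2.59-fold higher (adjusted p = 0.0146, and 0.0504 without ruptured replicate 6) and the only called gene of 26 in the complement and coagulation list. IFIT3, an interferon-induced gene, differed by 0.90 ± 0.22 as the only called gene of 19 in its list. That call was lost without any 1 of the 8 arrays (adjusted p up to 0.126) and under reference scaling. IFIT3 averaged lowest at 12 h, at 7.70, against 8.67 at 0 h and 8.90 at 24 h. Its mean was 9.63 in unruptured and 8.61 in ruptured follicles. BIRC3 was the only called gene of 20 in the apoptosis list.

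**Figure D4:**
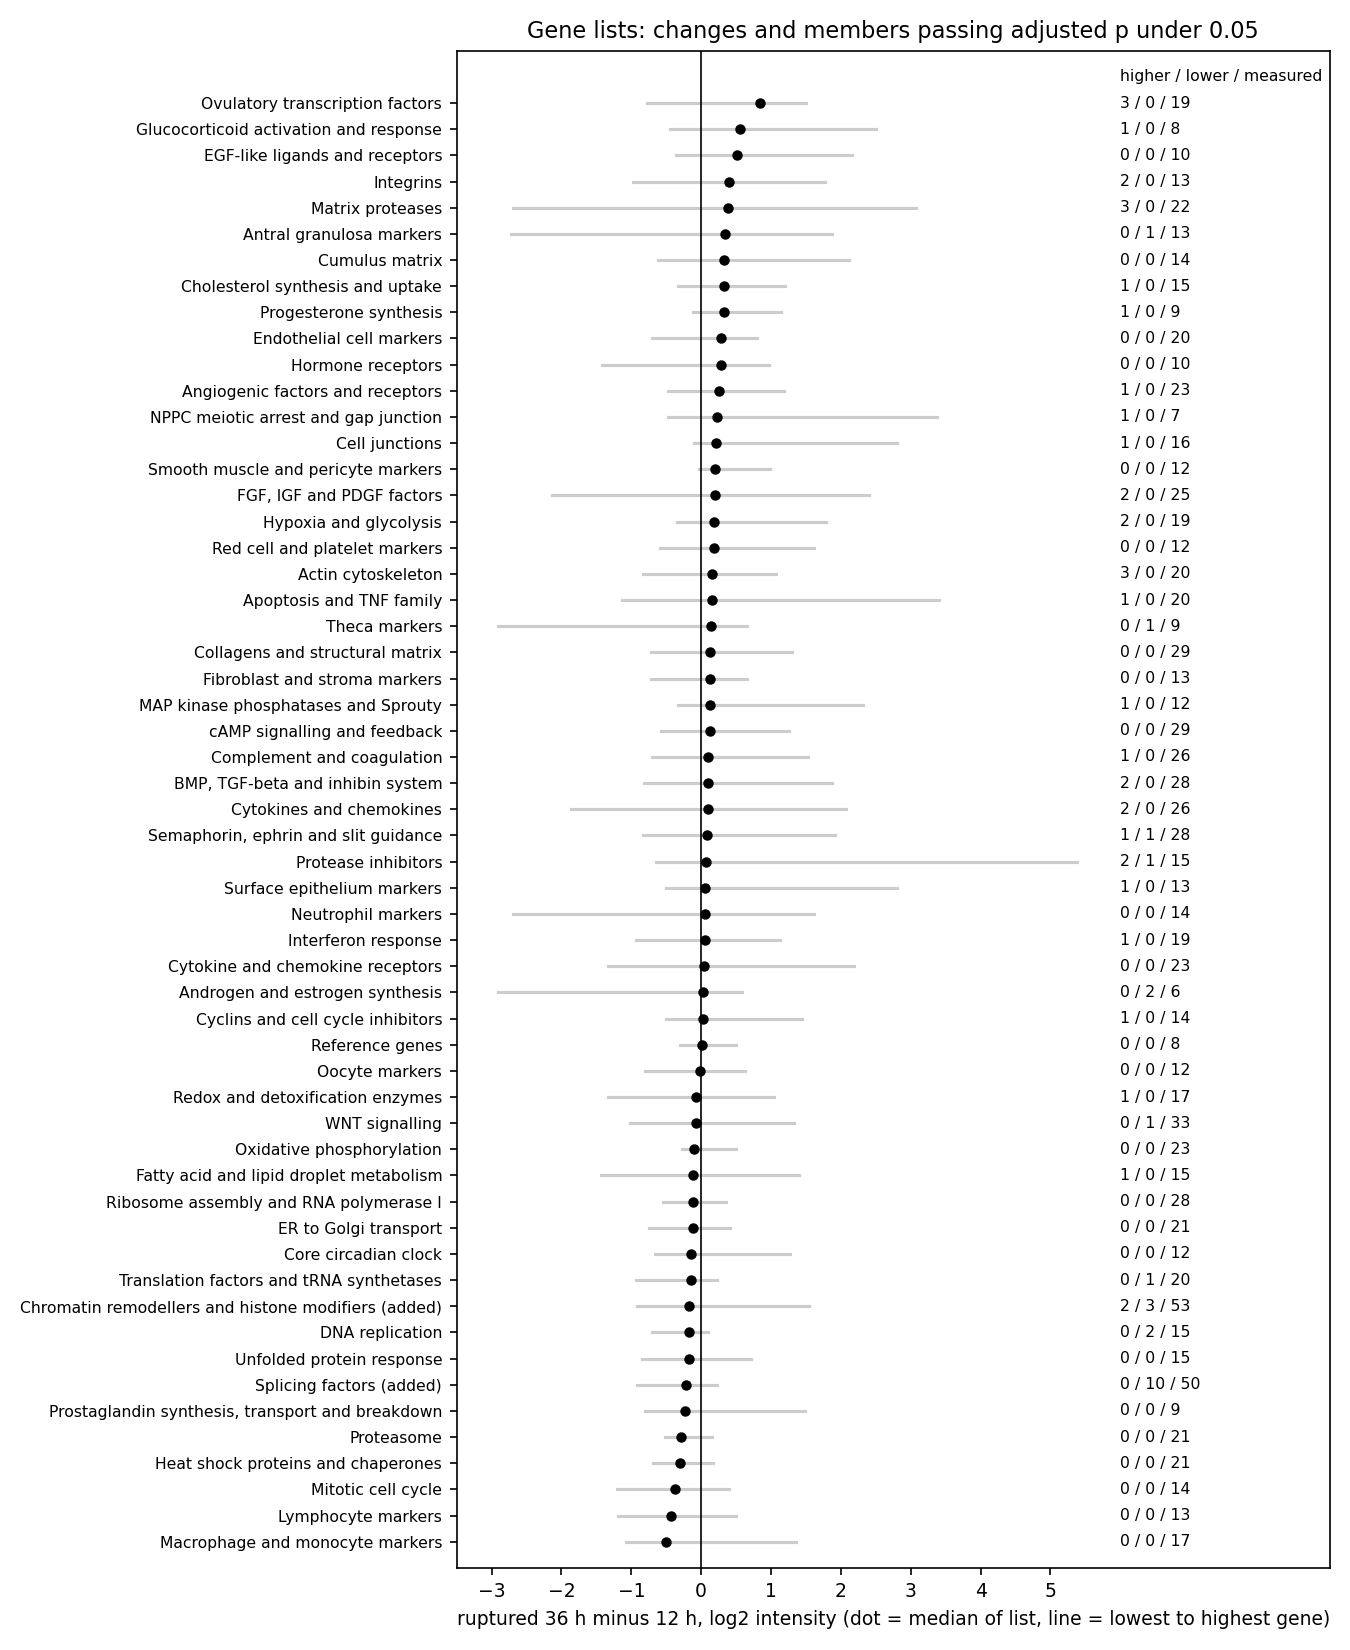
Gene lists (y axis) by their log2 difference between ruptured and 12 h follicles (x axis); dots are medians over the measured genes, grey lines run from the lowest to the highest gene, and the numbers at the right are genes called higher, called lower and measured. Medians run from -0.50 to 0.84, and splicing factors, a list added after values were seen, hold the most calls (10 lower of 50).

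Cell cycle and metabolic genes gave the following. Of 15 DNA replication genes 2 were lower and 0 higher, with 14 of 15 differences below 0. MCM2 and MCM5, subunits of the replicative helicase, differed by -0.71 ± 0.14 (adjusted p = 0.0165) and -0.66 ± 0.16 (adjusted p = 0.0394). The MCM2 call was lost without 12 h replicate 1 or ruptured replicate 7, and the MCM5 call without 12 h replicate 1, 2 or 4 or any ruptured replicate (adjusted p up to 0.116). CDKN1A, the cyclin-dependent kinase inhibitor p21, read 8.23, 8.73, 7.83 and 8.74 at 12 h and 9.35, 9.51, 10.36 and 9.37 after rupture (difference 1.27 ± 0.28, adjusted p = 0.0246), lost without 12 h replicate 1 or 3 or ruptured replicate 7 (adjusted p up to 0.0799). No gene of 14 in the mitotic list passed limma, with 1 higher and 7 lower at an unadjusted p under 0.05; MKI67 differed by 0.40 (interval -0.30 to 1.10).

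ALDOC, a glycolytic aldolase, read 6.68, 8.35, 7.05 and 8.32 against 9.46, 9.42, 9.68 and 9.02, and SLC2A3, the glucose transporter GLUT3, read 6.22, 6.45, 6.82 and 6.68 against 7.70, 8.03, 8.41 and 7.91. They differed by 1.79 ± 0.33 (adjusted p = 0.00926) and 1.47 ± 0.21 (adjusted p = 0.00138) as the 2 called genes of 19 in the hypoxia and glycolysis list. Neither gene's ruptured arrays overlapped its 12 h arrays. GSTA3, a glutathione transferase, was 2.06-fold higher (adjusted p = 0.0206), lost without 12 h replicate 3 or 4 or ruptured replicate 7 (adjusted p up to 0.0685). GSTA3 averaged lowest at 12 h, at 10.81, against 12.16 at 0 h and 11.47 at 24 h. Its mean was 11.59 in unruptured and 11.85 in ruptured follicles. EIF4G1, the scaffold of the cap-binding complex, was lower by a difference of -0.93 ± 0.18 (adjusted p = 0.0109). It was the only called gene of 20 translation factors and tRNA synthetases. EIF4G1 averaged 7.45 at 24 h and 7.24 in unruptured follicles, against 7.70 in ruptured follicles.

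Of 20 actin cytoskeleton genes 3 were higher and 0 lower. Among them ANXA2, a membrane-binding annexin, differed by 0.96 ± 0.18 (adjusted p = 0.00961) and MYL9, a myosin light chain, by 0.52 ± 0.12 (adjusted p = 0.0339). The MYL9 call ended under reference scaling and without 12 h replicate 1, 2 or 4 or ruptured replicate 6 or 7 (adjusted p up to 0.104). MYL9 averaged 11.91 at 24 h and 12.18 in unruptured follicles, against 12.11 in ruptured follicles. In the guidance list of 28 genes, EPHA2, an ephrin receptor, read 7.01, 6.98, 6.88 and 7.16 at 12 h and 8.10, 8.09, 7.84 and 7.68 after rupture (difference 0.92 ± 0.17, adjusted p = 0.00852). Its mean was 5.83 at 24 h and 6.06 in unruptured follicles. PLXNA1, a semaphorin receptor, was lower, with 8.21, 8.26, 8.33 and 7.99 against 7.41, 7.42, 7.47 and 7.66. The difference was -0.70 ± 0.11 (adjusted p = 0.00256), though the mean of its probe sets did not pass. PLXNA1 averaged 7.75 at 24 h and 7.48 in unruptured follicles.

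The 12 lowest called genes included CYP17A1, described above. SDS, serine dehydratase, read 7.76, 5.62, 6.90 and 8.06 at 12 h and 4.96, 4.60, 4.61 and 4.21 after rupture (difference -2.49 ± 0.58, adjusted p = 0.0355). Its call was lost without 12 h replicate 1, 3 or 4 or any ruptured replicate (adjusted p up to 0.104). SDS averaged 4.19 at 24 h and 3.48 in unruptured follicles. LUZP1 differed by -1.76 ± 0.29 (adjusted p = 0.00397) and HAUS5, a subunit of the augmin complex of the spindle, by -1.75 ± 0.35 (adjusted p = 0.0145), each by its only probe set. In unruptured follicles LUZP1 averaged 5.39 and HAUS5 5.34, against 5.47 and 3.96 in ruptured follicles. The other 8 of the 12 lowest genes are read from a dimmer probe set while their brightest did not pass. SOCS1, a feedback inhibitor of cytokine signalling, had dimmer values of 6.32, 6.43, 6.48 and 6.13 against 4.78, 3.98, 4.02 and 4.99 (difference -1.90 ± 0.21), but its brightest probe set differed by 0.13 (adjusted p = 0.791). In the same way POLR2L (-1.84), OSBPL8 (-1.83), PRRC2C (-1.81), THRAP3 (-1.60), PRMT2 (-1.60), VPS13B (-1.59) and TNRC6B (-1.57) had brightest probe sets between -0.62 and -0.02. Of their probe sets 2 of 3 were called lower for POLR2L, 3 of 6 for PRRC2C, 2 of 7 for TNRC6B and 1 for each of the others. Because the brightest probe set did not pass in any of the 8, no lower level of the gene as a whole is stated for them. With 16 added, OSBPL8, HAUS5 and VPS13B differed by -1.18, -1.06 and -1.02. The TNRC6B call ended without 12 h replicate 1, 2 or 3 or ruptured replicate 5, 6 or 7 (adjusted p up to 0.0838).

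After these values were seen, a list of splicing factors and a list of chromatin genes were added, and their counts are a description only. Of 50 measured splicing factors 10 were lower and 0 higher, with 42 differences below 0 and a median of -0.22. NKTR, a cyclophilin with a serine-arginine-rich domain, read 9.15, 9.06, 9.26 and 8.88 at 12 h and 8.18, 8.08, 8.25 and 8.15 after rupture (difference -0.92 ± 0.16, adjusted p = 0.0072). SRRM2, a large serine-arginine-rich splicing coactivator, read 10.54, 10.27, 10.40 and 10.35 against 9.42, 9.57, 9.68 and 9.27 (difference -0.91 ± 0.16, adjusted p = 0.0072). Neither gene's groups overlapped. SNRPF, a core spliceosomal Sm protein, and DHX9, an RNA helicase, differed by -0.65 ± 0.14 and -0.60 ± 0.11, the former lost without 12 h replicate 1 or 2 or ruptured replicate 6 or 7 (adjusted p up to 0.0757). Of 53 chromatin genes 2 were higher and 3 lower, with a median of -0.17. KAT6A, a histone acetyltransferase, stood out upwards, with 9.18, 8.86, 9.24 and 8.90 against 10.92, 10.42, 10.26 and 10.79 (difference 1.55 ± 0.16, adjusted p = 8.11e-05), and HDAC5, a histone deacetylase, differed by 1.11 ± 0.21 (adjusted p = 0.01). KAT2A, another acetyltransferase, and BPTF, a chromatin remodeller subunit, differed by -0.75 ± 0.15 and -0.54 ± 0.10. KAT6A was near 9 in the 0 h, 12 h and 24 h means and 9.37 in unruptured follicles. HDAC5 averaged 7.75 at 24 h and 7.86 in unruptured follicles, close to its ruptured mean of 7.96. SNRPF and DHX9 averaged 8.78 and 8.83 in unruptured follicles, against 9.22 and 9.05 in ruptured follicles. NKTR and SRRM2 averaged 8.81 and 10.15 in unruptured follicles, against 8.16 and 9.48. For KAT2A and BPTF these means were 7.97 and 9.73, against 7.38 and 9.09. All these values are from the brightest probe set of each gene, and several genes had other probe sets that did not pass. Of all their probe sets 1 of 3 passed for KAT6A, 1 of 2 for HDAC5 and for SRRM2, and 2 of 6 for NKTR. For DHX9 it was 1 of 4 and for BPTF 1 of 5.

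Across all 54 lists, 878 of 1184 listed genes were measured and 43 were called, and 24 lists held none. Over all named genes 289 of 14132 (2.05%) were called, but the lists were chosen with earlier results of these data known. Over all 52766 probe sets, 7714 had an unadjusted p under 0.05 in either direction. Some lists leaned one way with no gene past the adjusted test. The 21 proteasome genes had a median of -0.29 and 13 were lower at an unadjusted p under 0.05, and the 21 heat shock proteins and chaperones had a median of -0.31 with 9 lower; limma called 0 in each, or 2 and 1 lower with the mean of each gene's probe sets. No call was made among 23 oxidative phosphorylation genes (3 at an unadjusted p under 0.05), 28 ribosome assembly genes (5), 21 genes of transport from the endoplasmic reticulum (4), 15 of the unfolded protein response (4), 29 of cAMP signalling (5), 23 cytokine receptors (6), 12 clock genes (4) or the 9 measured prostaglandin genes (1). Taking the mean of each gene's probe sets also gave 2 genes higher in place of 1 in the interferon, MAP kinase phosphatase, meiotic arrest, redox and surface epithelium lists, 1 in place of 0 in the unfolded protein response, and 1 lower in place of 0 in the cytokine receptor, lymphocyte, endoplasmic reticulum transport and actin lists. It gave 2 lower theca markers in place of 1, and 1 higher and 7 lower chromatin genes in place of 2 and 3. PTGS2, EREG, CYP11A1, LHCGR and VEGFA, all in the panel, had no probe set with their single symbol here and were not analysed.

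**Figure D5:**
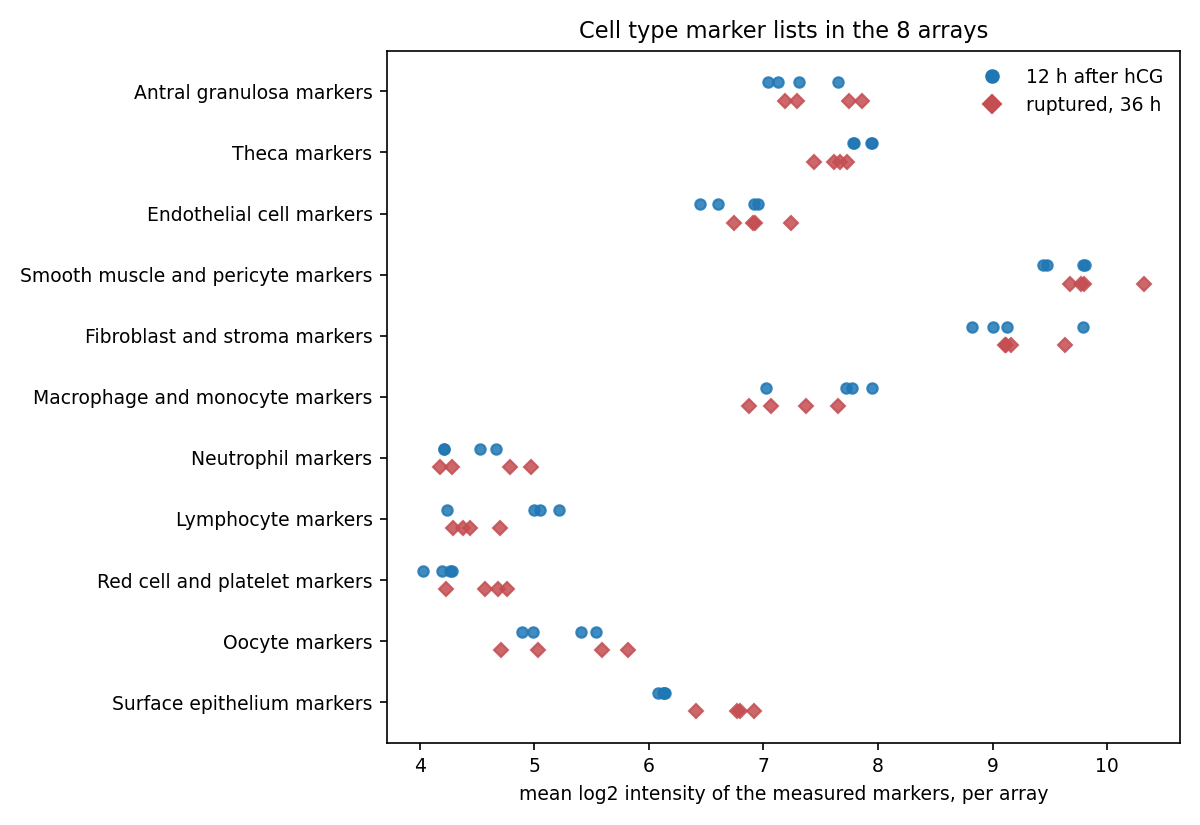
Mean log2 intensity of the measured markers of 11 cell types (y axis), 1 point per array on the x axis, for 12 h (circles) and ruptured follicles (diamonds). Surface epithelium markers lie at 6.08 to 6.14 and 6.41 to 6.92, and theca markers at 7.78 to 7.95 and 7.44 to 7.73, without overlap, though the median differences of these lists were 0.06 and 0.14; the other lists overlap.

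Marker lists checked the tissue label and the cells a whole follicle can hold. Granulosa markers averaged 7.04 to 7.65 per array at 12 h and 7.19 to 7.86 after rupture, and theca markers 7.78 to 7.95 and 7.44 to 7.73, with CYP19A1 and CYP17A1 their only called members, of 13 and 9. The theca list's median difference was 0.14 and 5 of its 9 genes were above 0, against -2.91 for CYP17A1. The steroidogenic genes STAR and HSD3B2 and the granulosa genes INHA and FST were well above the median of all probe sets in both groups. Of 20 endothelial markers limma called 0 (3 at an unadjusted p under 0.05, median 0.29), and of 12 smooth muscle and pericyte markers 0 (2, median 0.20), so these lists gave no called increase after rupture. Fibroblast (13 genes), oocyte (12), red cell and platelet (12), neutrophil (14) and lymphocyte (13) markers also gave 0 calls, with 1, 0, 1, 1 and 2 at an unadjusted p under 0.05. Of 17 macrophage and monocyte markers limma called 0, with 3 lower at an unadjusted p under 0.05. Their median was -0.50, 14 of 17 were below 0, and the level per array was 7.02 to 7.95 at 12 h and 6.87 to 7.65 after rupture. Of 13 surface epithelium markers CDH1, dim throughout, was called and the next highest, KRT7, differed by 2.12 (adjusted p = 0.0582), while the list's median was 0.06 and 4 of 13 were below 0. The part of these lists in the differences above was not tested, and in whole follicles fewer cells of a type and less RNA per cell cannot be told apart. Neutrophil and red cell markers were mostly dim, with 7 of 14 and 7 of 12 below the median of all probe sets in both groups. An index of RNA quality, the log2 excess of the 3' over the 5' end of control transcripts, was 0.391 ± 0.0786 (SD, n = 4) at 12 h, where replicate 3 stood at 0.506, and 0.326 ± 0.033 after rupture (exact permutation p = 0.143, two-sided, with 0.0286 the smallest possible). Adding the index to the fit left 467 called probe sets and ended 22 of the 70 named calls, namely OSGIN1, SERPINB2, ENPP3, DAPL1, VTN, SDS, CYP19A1, HSD11B1, NPC1, NFIL3, MYC, ADAMTS1, SERPINH1, CDH1, IL18, IFIT3, ID4, FZD1, DUSP14, CDKN1A, GSTA3 and MYL9.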

How the data were processed

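The authors deposited 1 intensity for each probe set and array, made with RMA per the submitters' processing notes (version not given in the sources used here). They ran from 0.0361 to 15137 with array medians of 26.1 to 26.7, so log2 was taken. Neither batches nor detection calls are recorded in the sources used here, so no level can be called above or below background, and the number of arrays limits the precision. Of 52865 probe sets, 99 controls were left out. A single symbol was found for 24956, several for 361 and none for 27449; 24616 matched the RefSeq gene table. No 2 arrays were identical.

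Group means of all 22 arrays were fitted with limma 3.58.1 in R 4.3.3 (lmFit, eBayes; two-sided). Adjusted p-values below are limma's with Benjamini-Hochberg adjustment over 52766 probe sets, called under 0.05. On simulated data with 2-fold and 4-fold differences for this comparison, 50% and 90% of the changed probe sets were recovered, with 8 false calls. The differences were placed only in probe sets brighter than the median, with normal noise of equal spread in all groups. The recovery therefore does not cover dim probe sets. Neither figure covers genes whose spread differs between groups, such as SERPINB2 (SD 0.15 at 12 h, 2.56 in ruptured follicles). A gene is given by its brightest probe set unless stated. Other probe sets of a called gene did not always pass, as for PLAUR and IFIT3 (1 of 3 passed each) and ID4 (1 of 4). The comparison, gene lists and panel were chosen with earlier results of these data known. Named genes were the 12 highest and 12 lowest called genes whose groups do not overlap and whose higher mean is at least 1 log2 unit above the median probe set, up to 4 called members per list, and the panel. Alternatives were the arrays in the fit, 16 added before log2, a brightness filter, quantile normalization, reference gene scaling, array weights, an intensity trend, the RNA index and each array left out. 1 named gene of the actin list is not reported here.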

Additional observations from a re-analysis of the deposited data

Results flagged for a closer look

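Of 190 groups of 4 arrays tested (95 named probe sets in each group), 8 held an array whose gap to its nearest neighbour was over 0.829 of the group's range, and chance flags about 1 in 20. At 12 h, IFIT3 was lowest in replicate 4 (7.16 against 7.88 for the next, gap 0.979 of the range), MCM2 lowest in replicate 3 (7.32 against 7.63, gap 0.863), PTX3 lowest in replicate 3 (9.62 against 10.47, gap 0.86), TIMP1 lowest in replicate 3 (13.34 against 13.48, gap 0.896) and PROK1 highest in replicate 1 (6.93 against 6.27, gap 0.897). In ruptured follicles, MCM5 was lowest in replicate 6 (6.31 against 6.65, gap 0.885), CDKN1A highest in replicate 7 (10.36 against 9.51, gap 0.84) and HAS2 lowest in replicate 8 (5.02 against 6.51, gap 0.9). Of these genes IFIT3, MCM2, MCM5 and CDKN1A were called.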

How the results depend on the processing

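Against 845 called probe sets (497 higher, 348 lower, 398 at least 2-fold), the fit of the 8 arrays alone called 9 (6, 3 and 9), 16 added before log2 gave 1457 (872 higher, 585 lower), only probe sets above the median brightness 2060 (1034, 1026), an intensity trend 1693 (893, 800, 605 at least 2-fold) and the RNA index as a covariate 467 (255, 212). Leaving out each array in turn gave 474 to 1022 calls, 302 to 580 higher, 172 to 442 lower and 292 to 543 at least 2-fold, the lowest total without 12 h replicate 1 and the highest without ruptured replicate 8; totals also moved by over 1.5 times without ruptured replicate 6 (549) and 7 (519). No call turned to a call in the opposite direction under any of these settings. Of 70 named calls 41 passed without any 1 array, 29 were lost at least once and DAPL1 and IFIT3 were lost in all 8 fits. Array weights ended 12 named calls (OSGIN1, ENPP3, DAPL1, SDS, CYP19A1, HSD11B1, ADAMTS1, SERPINH1, CDH1, IL18, IFIT3, ID4), reference scaling 8 (DAPL1, NFIL3, MYC, ADAMTS1, CDH1, IFIT3, ID4, MYL9) and quantile normalization 4 (DAPL1, ADAMTS1, ID4, MYL9). Differences that turned sign, none of them called, were VCAN (-0.04) and FST (-0.01) with the index, and without 12 h replicate 3 HSD3B2 (-0.03, range over arrays left out -0.03 to 0.41), VCAN (-0.06, range -0.06 to 0.20), INHA (-0.08, range -0.08 to 0.91) and FST (-0.17, range -0.17 to 0.87). The causes were not tested. With the mean of a gene's probe sets, the splicing list's median was -0.30, and DNA replication had 1 lower gene in place of 2. No paired analysis was possible because the 12 h follicles are numbered 1 to 4 and the ruptured follicles 5 to 8, so the groups share no replicate number. No detection call or signal over background was given, which limits all statements on dim probe sets.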
